A study of Arabidopsis thaliana with 40 samples.

Results

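The genes described here are the nuclear genes that encode light-harvesting proteins and subunits of the 2 photosystems in *Arabidopsis thaliana*. They were chosen by their gene identifiers and not by measured values, but with earlier results of these data known. They number 44 of the 33601 genes in each strand table. The list holds 6 LHCA genes, 15 LHCB genes, 12 PSA genes and 11 PSB genes, and all 44 had a value in every strand table. The authors took unopened buds of untreated plants 30 days of age and made libraries of total RNA and of smRNA inserts between 15 and 50 nt, from plants grown in 16 h light and 8 h dark at 22 °C. The study asked which RNAs depend on the RNA-dependent RNA polymerases RDR1 to RDR6 and on their cofactors SGS3 and RDM12.

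The genotypes were *rdr3* with Col-0 controls of its own, and 7 mutants with the Col-0 controls they share, namely libraries labelled *rdm12*, *sgs3*, *rdr6*, *rdr5*, *rdr4*, *rdr2* and *rdr1*, each with 2 libraries per assay. Every mutant was used as a single allele. The deposited level of a gene is a mean log2 CPM, that is, reads of a gene scaled to a common library total, on a log2 scale, and it is a mean over libraries with no value per library. This mean was the same in the tables of these 7 mutants, with a largest difference of 0 over all rows of each kind of table. By the labels the 7 mutants and the Col-0 they share make 16 total RNA libraries, called the 7-mutant set here, and *rdr3* with its controls makes 4, called the *rdr3* set. For total RNA, the *rdr3* labels name Col-0 controls by other numbers than those in the titles of the Col-0 libraries placed in this set, so it is in doubt which Col-0 libraries entered the *rdr3* means, and this bears on every value of the *rdr3* set in total RNA and on the comparison of the sets. Levels in a mutant and in Col-0 can therefore not be told apart in these means, and no value below carries an SD or a test. The tables give no counts, so the depth of each library is unknown here. The other deposited columns hold the authors' own comparisons of each mutant with Col-0 and were not used, so nothing below says how a photosystem gene changed in any mutant. The labels could not be checked on the mutated genes for the same reason.

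Photosystem II takes electrons from water and photosystem I passes them on to ferredoxin, and both are fed with excitation energy by antenna proteins that bind chlorophyll. LHCA proteins form the antenna of photosystem I and LHCB proteins that of photosystem II, while PSA and PSB genes encode subunits of the photosystems themselves. Their core reaction centre proteins are encoded in the plastid, and the nuclear genes supply the antenna and the peripheral subunits. In flower buds, the green tissue is mainly that of young sepals and carpels.

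Many of these proteins are encoded by near-identical genes, which limits which reads can be assigned to a gene. Every 50 nt window of the annotated exons, the read length of the study, was matched to the genome with up to 2 mismatches, as the authors allowed. smRNA inserts can be shorter than 50 nt, so the windows do not show which smRNA reads have 1 place. In 24 of the 44 genes every window had 1 place in the genome, and in 12 more between 96.4% and 99.6% did. The remaining 8 were *LHCA2*, the 5 *LHCB1* genes, *LHCB2.1* and *LHCB2.2*, with 41.0% of windows at 1 place in *LHCB1.3* (*AT1G29930*) and up to 71.3% in *LHCA2* (*AT3G61470*). Reads with several places were put into a separate total by HTSeq and not into genes, so the levels of these 8 genes rest on the part of each gene that differs from its relatives. The coding sequences of *LHCB1.3* and *LHCB1.2* (*AT1G29910*) were 96.4% identical, and those of *LHCB1.3* and *LHCB1.4* (*AT2G34430*) 86.7%.

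Of the gapless stretches of 90 coding bases that begin at a codon of *LHCB1.3*, the one with the most differing positions among the *LHCB1* genes shows what separates their reads. It runs 5′ to 3′, and capitals mark in *LHCB1.3* each base at which any relative differs, and in the other genes each base that differs from *LHCB1.3*. In TAIR10.1 the stretches lie at chr1:10478254-10478343 (plus strand, *LHCB1.3*), chr1:10472974-10473063 (minus strand, *LHCB1.2*), chr1:10475620-10475709 (minus strand, *LHCB1.1*), chr2:14523247-14523336 (minus strand, *LHCB1.5*) and chr2:14524998-14525087 (plus strand, *LHCB1.4*), all in coding exons.
LHCB1.3: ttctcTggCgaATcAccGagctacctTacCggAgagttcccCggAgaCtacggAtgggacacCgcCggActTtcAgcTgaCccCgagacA
LHCB1.2: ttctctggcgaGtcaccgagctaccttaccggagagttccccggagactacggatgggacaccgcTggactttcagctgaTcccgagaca
LHCB1.1: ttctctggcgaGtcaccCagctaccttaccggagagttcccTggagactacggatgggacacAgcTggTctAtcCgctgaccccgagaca
LHCB1.5: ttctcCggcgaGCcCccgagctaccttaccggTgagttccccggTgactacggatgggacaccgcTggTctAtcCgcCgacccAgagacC
LHCB1.4: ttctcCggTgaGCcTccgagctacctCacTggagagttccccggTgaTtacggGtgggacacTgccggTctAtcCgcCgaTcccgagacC
Over these 90 bases *LHCB1.2* differed from *LHCB1.3* at 3 positions, *LHCB1.1* (*AT1G29920*) at 8, *LHCB1.5* (*AT2G34420*) at 13 and *LHCB1.4* at 17.

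In total RNA, most of the 44 genes had high levels in the buds, while *LHCB7*, *LHCA6* and *LHCB1.4* did not. Their sense log2 CPM had a median of 4.78 in the *rdr3* set and 5.04 in the 7-mutant set, and together they took 1.61% of the CPM in genes in the *rdr3* set and 1.36% in the 7-mutant set. Of 12479 genes with a log2 CPM of at least 0 in the *rdr3* set and 14478 in the 7-mutant set, the median photosystem gene stood at percentile 97.0 in the *rdr3* set, over the 43 that passed, and at 96.8 in the 7-mutant set, over all 44. In the 7-mutant set *LHCB7* was at percentile 14.2, *LHCA6* at 28.6 and *LHCB1.4* at 58.4, and in the *rdr3* set *LHCA6* was at 27.1 and *LHCB1.4* at 65.3, while *LHCB7* with a log2 CPM of -0.24 did not pass. Per kb of mRNA, the scale used to set different genes side by side, the median was 4.67 in the *rdr3* set and 4.94 in the 7-mutant set. For all protein-coding genes with a log2 CPM of at least 0 it was 0.44 and 0.79. In both sets 39 of the 44 lay above the 90th percentile of those protein-coding genes. This scale understates the 8 genes with many shared windows. By windows at 1 place in the *rdr3* set, *LHCA2* had 6.47 against 6.25 for *LHCA3*, and *LHCB2.1* 6.08 against 5.26 for *LHCB3*. By mRNA length these 2 orders were reversed in the *rdr3* set, while in the 7-mutant set both scales gave the same orders. The levels ran over 7.92 log2 units in the *rdr3* set and 7.63 in the 7-mutant set, from *LHCB7* (*AT1G76570*) to *LHCB1.3*. Across the 44 genes the levels of the 2 sets had a Pearson r of 0.991 and a Spearman rho of 0.986, which describes genes measured in both sets and not replicates.

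**Figure D1:**
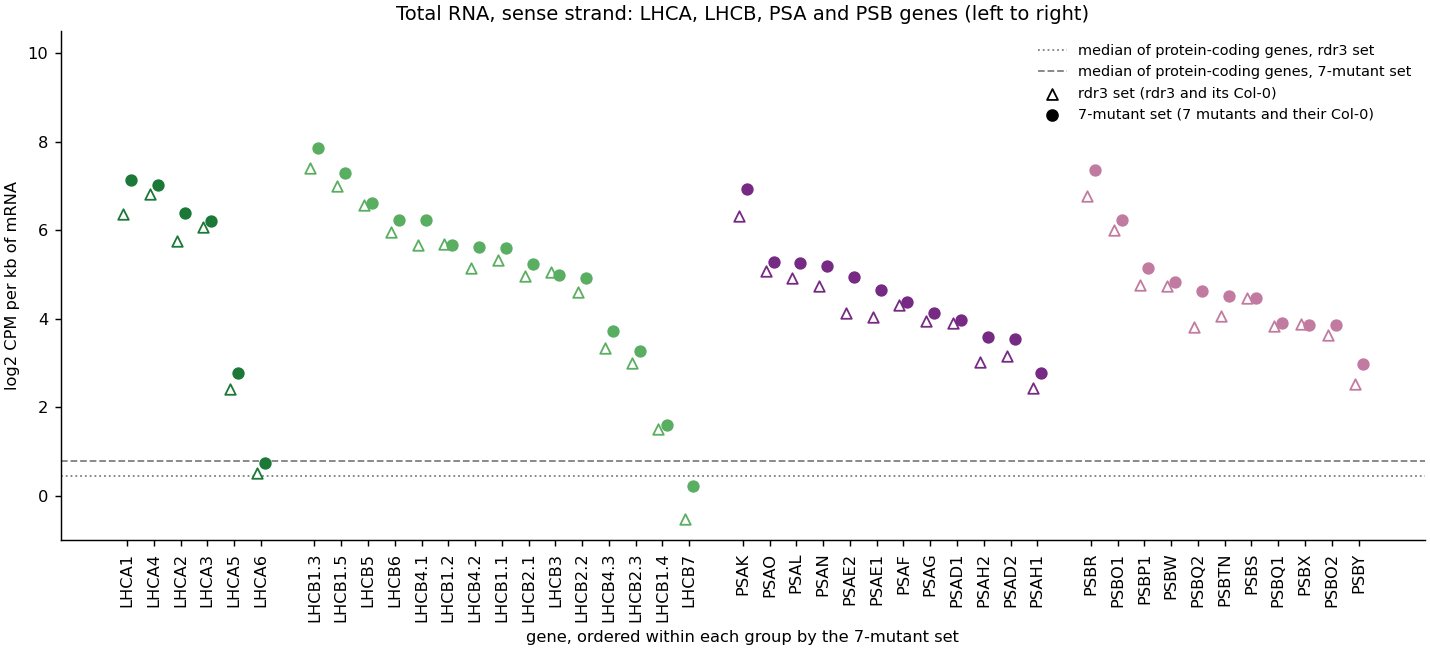
Levels of the 44 genes in total RNA on the sense strand, as log2 CPM per kb of mRNA, in 4 groups (LHCA, LHCB, PSA, PSB); triangles are the means of the rdr3 set, circles those of the 7-mutant set, and lines the medians of all protein-coding genes with a log2 CPM of at least 0. The genes span 7.92 log2 units in the rdr3 set and 7.63 in the 7-mutant set, with LHCB1.3 highest and LHCB7 lowest in both, and no error bars can be drawn because the values are means without replicates.

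The LHCA genes fell into abundant and rare members. *LHCA1* (*AT3G54890*), *LHCA2*, *LHCA3* (*AT1G61520*) and *LHCA4* (*AT3G47470*), whose proteins make the belt of antenna around photosystem I, had 6.36, 5.76, 6.08 and 6.82 log2 CPM per kb in the *rdr3* set and 7.15, 6.40, 6.21 and 7.03 in the 7-mutant set. *LHCA5* (*AT1G45474*) had 2.41 in the *rdr3* set and 2.78 in the 7-mutant set. *LHCA6* (*AT1G19150*) had 0.51 in the *rdr3* set and 0.75 in the 7-mutant set. The proteins of *LHCA5* and *LHCA6* are known to link photosystem I to the NDH complex. *LHCA6* thus stood close to the median protein-coding gene, 6.31 log2 units below *LHCA4*, the highest LHCA gene of the *rdr3* set, and 6.39 below *LHCA1*, the highest of the 7-mutant set.

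Among the LHCB genes, the widest spread was within *LHCB1*, which encodes the main protein of the mobile trimers of photosystem II antenna. *LHCB1.3* had 7.40 log2 CPM per kb in the *rdr3* set and 7.85 in the 7-mutant set, the highest level of all 44 genes. *LHCB1.5* followed with 6.99 in the *rdr3* set and 7.29 in the 7-mutant set. In the *rdr3* set *LHCB1.2* had 5.70 and *LHCB1.1* had 5.34, and in the 7-mutant set they had 5.67 and 5.59. *LHCB1.4* had only 1.51 in the *rdr3* set and 1.59 in the 7-mutant set. The order of the 5 genes was the same in both sets, and the highest and the lowest were 59.5-fold apart in the *rdr3* set and 76.6-fold in the 7-mutant set. Counted per window at 1 place instead of per mRNA length, the span widened to 6.59 log2 units in the *rdr3* set and 6.95 in the 7-mutant set, with *LHCB1.3* still highest and *LHCB1.4* lowest.

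*LHCB2* encodes the second protein of these trimers, and *LHCB2.1* (*AT2G05100*) had 4.97 log2 CPM per kb in the *rdr3* set and 5.24 in the 7-mutant set. *LHCB2.2* (*AT2G05070*), 96.6% identical to it in coding sequence, had 4.60 in the *rdr3* set and 4.92 in the 7-mutant set, and *LHCB2.3* (*AT3G27690*) had 3.0 and 3.27. *LHCB3* (*AT5G54270*), the remaining trimer protein, had 5.06 in the *rdr3* set and 4.99 in the 7-mutant set. The linker antenna genes were high, with 6.58 and 6.62 for *LHCB5* (*AT4G10340*) and 5.96 and 6.24 for *LHCB6* (*AT1G15820*) in the *rdr3* set and the 7-mutant set. In *LHCB4*, which encodes another linker, *LHCB4.1* (*AT5G01530*) had 5.66 and 6.23, *LHCB4.2* (*AT3G08940*) 5.16 and 5.63, and *LHCB4.3* (*AT2G40100*) 3.34 and 3.74. *LHCB4.3* was thus 4.99-fold below *LHCB4.1* in the *rdr3* set and 5.64-fold in the 7-mutant set. *LHCB7*, a rare antenna gene, had -0.52 in the *rdr3* set and 0.22 in the 7-mutant set, below the median protein-coding gene in both.

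The PSA genes lay closer together, over 3.88 log2 units in the *rdr3* set and 4.16 in the 7-mutant set. *PSAK* (*AT1G30380*), a subunit beside the LHCA belt, was highest with 6.33 log2 CPM per kb in the *rdr3* set and 6.94 in the 7-mutant set. *PSAG* (*AT1G55670*), which sits on the other side of the belt, had 3.95 and 4.14. The subunits at which the LHCB trimers dock had 4.91 and 5.27 (*PSAL*, *AT4G12800*) and 5.09 and 5.28 (*PSAO*, *AT1G08380*) in the *rdr3* set and the 7-mutant set. The PSAH genes, whose protein lies at the same docking side, had 2.44 and 2.78 for *PSAH1* (*AT3G16140*), the lowest PSA gene, and 3.04 and 3.59 for *PSAH2* (*AT1G52230*). *PSAF* (*AT1G31330*) and *PSAN* (*AT5G64040*), on the side of plastocyanin, had 4.32 and 4.73 in the *rdr3* set and 4.37 and 5.18 in the 7-mutant set. At the ferredoxin side, *PSAD1* (*AT4G02770*) and *PSAD2* (*AT1G03130*) had 3.91 and 3.17 in the *rdr3* set and 3.96 and 3.54 in the 7-mutant set, and *PSAE1* (*AT4G28750*) and *PSAE2* (*AT2G20260*) had 4.05 and 4.14 in the *rdr3* set and 4.65 and 4.95 in the 7-mutant set. The 2 PSAE genes differed by only 0.09 log2 units in the *rdr3* set and 0.30 in the 7-mutant set, and by coding length their order turned round in both sets, as did that of the PSAH genes.

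The highest PSB gene was *PSBR* (*AT1G79040*), a small subunit near the oxygen-evolving complex, with 6.77 log2 CPM per kb in the *rdr3* set and 7.35 in the 7-mutant set. Of the genes for the proteins that cap the manganese cluster, *PSBO1* (*AT5G66570*) had 6.01 in the *rdr3* set and 6.24 in the 7-mutant set, and *PSBO2* (*AT3G50820*) had 3.64 and 3.86. *PSBO1* was 5.16-fold above *PSBO2* in the *rdr3* set and 5.21-fold in the 7-mutant set. *PSBP1* (*AT1G06680*) had 4.77 and 5.14, while *PSBQ1* (*AT4G21280*) had 3.85 and 3.91 and *PSBQ2* (*AT4G05180*) 3.81 and 4.62. The order of the PSBQ genes differed between the sets, the only such case among the 8 groups of related genes, but by coding length *PSBQ2* was above *PSBQ1* in both sets. *PSBS* (*AT1G44575*), the sensor for dissipation of excess light energy, had 4.47 in the *rdr3* set and 4.48 in the 7-mutant set. The small subunit genes *PSBW* (*AT2G30570*), *PSBTN* (*AT3G21055*) and *PSBX* (*AT2G06520*) had 4.75, 4.07 and 3.88 in the *rdr3* set and 4.83, 4.51 and 3.87 in the 7-mutant set. *PSBY* (*AT1G67740*) was lowest with 2.54 and 2.97.

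The stretch of 250 bases before the annotated start was read for the highest *LHCB1* genes, for *LHCB1.4* and for *LHCB7*. These are the highest and the lowest LHCB genes per kb of mRNA. The bases run 5′ to 3′ towards the start, and capitals mark 4 motifs on either strand: the CCAAT box, the TATA box as TATAAA, the G-box core as CACGTG and the I-box core as GATAAG. In TAIR10.1 they lie at chr1:10477635-10477884 (plus strand, *LHCB1.3*), chr2:14523569-14523818 (minus strand, *LHCB1.5*), chr2:14524357-14524606 (plus strand, *LHCB1.4*) and chr1:28728748-28728997 (plus strand, *LHCB7*).
LHCB1.3: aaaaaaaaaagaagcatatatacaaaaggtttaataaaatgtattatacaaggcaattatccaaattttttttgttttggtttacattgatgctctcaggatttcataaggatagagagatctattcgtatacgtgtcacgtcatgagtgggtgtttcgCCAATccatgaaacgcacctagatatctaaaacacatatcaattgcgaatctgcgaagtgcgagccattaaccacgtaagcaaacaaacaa
LHCB1.5: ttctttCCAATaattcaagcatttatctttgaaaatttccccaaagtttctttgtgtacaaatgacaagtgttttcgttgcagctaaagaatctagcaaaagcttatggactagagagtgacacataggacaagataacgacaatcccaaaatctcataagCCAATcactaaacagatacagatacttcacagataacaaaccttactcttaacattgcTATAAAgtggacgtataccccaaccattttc
LHCB1.4: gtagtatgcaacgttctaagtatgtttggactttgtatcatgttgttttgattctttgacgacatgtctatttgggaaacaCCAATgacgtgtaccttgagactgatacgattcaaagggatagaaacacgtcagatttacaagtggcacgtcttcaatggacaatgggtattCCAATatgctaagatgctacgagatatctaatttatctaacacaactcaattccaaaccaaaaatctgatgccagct
LHCB7: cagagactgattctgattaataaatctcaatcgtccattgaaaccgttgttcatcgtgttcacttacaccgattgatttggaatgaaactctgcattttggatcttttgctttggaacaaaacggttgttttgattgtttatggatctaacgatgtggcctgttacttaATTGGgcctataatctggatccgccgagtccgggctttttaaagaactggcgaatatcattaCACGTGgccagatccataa
CCAAT was present in all 4 stretches, TATAAA in that of *LHCB1.5* and CACGTG in that of *LHCB7*, so that CCAAT stood before the high genes and the low genes alike. Over all 44 genes CCAAT stood in 28, with 14 of 15 LHCB genes, 5 of 6 LHCA genes, 7 of 12 PSA genes and 2 of 11 PSB genes, against 46.0% of 27443 protein-coding genes. CACGTG stood in 10 of 44 against 6.49% of all, GATAAG in 9 of 44 against 12.3%, and TATAAA in 19 of 44 against 47.3%. The evening element AAATATCT stood in 1 of 44 against 4.79%, and GGGCC in 7 of 44 against 16.2%. These matches are counts of letters within 250 bases and were not tested.

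The other lists of photosynthesis genes had medians above and below that of the 44 genes. The 18 Calvin cycle genes had a median sense log2 CPM of 5.09 in the *rdr3* set and 5.73 in the 7-mutant set, led by *RCA* (rubisco activase) with 7.95 and 8.29. The 14 genes of electron transport had a median of 3.99 in the *rdr3* set and 4.61 in the 7-mutant set, and the 23 genes of chlorophyll synthesis 2.72 and 3.38. Among the chlorophyll genes *CHLH*, a subunit of magnesium chelatase, was highest with 6.71 and 7.37, and *PORA*, a protochlorophyllide reductase of dark-grown seedlings, lowest with -1.10 and -0.21. The 20 light regulators, among them phytochromes and the transcription factors *HY5*, *GLK1* and *GLK2*, had a median of 1.45 in the *rdr3* set and 2.25 in the 7-mutant set. The 20 plastid-encoded photosystem genes, partners of these proteins, had a median of 4.67 in the *rdr3* set and 5.35 in the 7-mutant set and reached 11.07 and 12.04 in *PSBA*. These are levels per gene and not per length.

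The bud tissue was checked on marker genes. The 7 genes of floral organ identity had 2.14 to 3.83 log2 CPM in the *rdr3* set and 3.24 to 4.91 in the 7-mutant set, and the pollen genes 3.38 to 4.93 and 3.75 to 5.50. Of 6 tapetum genes 3 reached a log2 CPM of 0 in each set. The meristem gene *STM* had 1.54 in the *rdr3* set and 2.01 in the 7-mutant set, and *WUS* had -0.20 and 0.77. The senescence genes *SAG12* and *SAG13* had -2.49 and -2.16 in the *rdr3* set and -1.07 and -0.89 in the 7-mutant set, where a row without a read has -2.83 in the *rdr3* set and -1.85 in the 7-mutant set. All 3 root hair genes were below 0, from -2.83 to -1.06 in the *rdr3* set and from -1.85 to -0.26 in the 7-mutant set. In whole buds, fewer green cells and less of these RNAs per cell cannot be told apart.

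Between the sets, most photosystem genes were higher in the *rdr3* set relative to the median gene, and lower as deposited, before the shift of the median gene is removed. The median gene with a mean log2 CPM of at least 0 was 0.67 log2 units lower in the *rdr3* set as deposited, and differences are given after removing this shift. A level higher by at least 0.5 in the *rdr3* set was found for 11 of the 44 photosystem genes (25.0%), against 10.6% of the 13440 genes compared, and one lower by at least 0.5 for 0 of 44, against 6.41%. The median of the 44 was 0.36, and 40 of them lay above 0. The other lists of photosynthesis genes were not compared in this way, so the difference is not shown to be particular to the 44. The highest differences were 0.75 for *LHCB3*, 0.70 for *LHCB1.2*, 0.68 for *PSBX* and 0.66 for *PSBS*, and the lowest were -0.14 for both *PSAE2* and *PSBQ2*. As deposited the median difference was -0.31, so the direction depends on the scale. These are differences between 2 means, which differ in genotypes, in libraries and in their Col-0 plants, and the sources of the difference cannot be told apart. It also carries the doubt over which Col-0 libraries entered the *rdr3* mean. As deposited, with the shift not removed, the floral identity genes had a median sense log2 CPM of 2.56 in the *rdr3* set and 3.81 in the 7-mutant set. The pollen genes had 3.71 and 4.28 and the tapetum genes 0.51 and 0.55, so these lists did not move alike. The part of any of these tissues in the result was not tested.

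**Figure D2:**
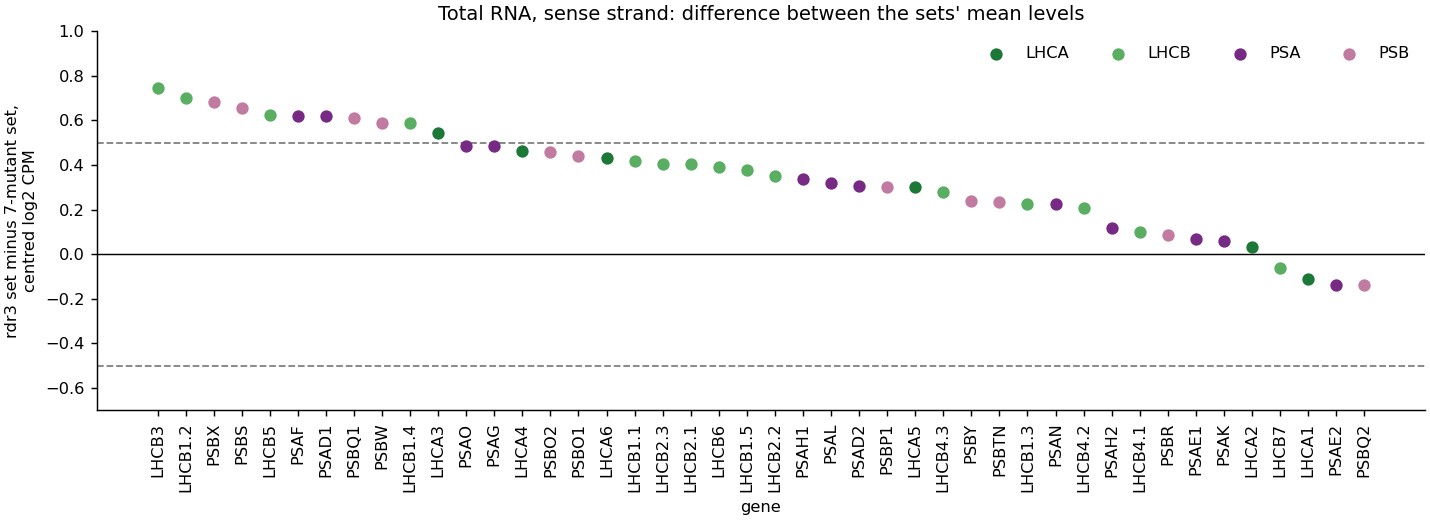
Difference in sense log2 CPM of total RNA between the rdr3 set and the 7-mutant set for each of the 44 genes, after removing the median difference of the 13440 genes compared; colours mark the 4 groups and dashed lines a difference of 0.5 in either direction. The 11 genes at the left lie above 0.5, 40 lie above 0 and none lies below -0.5, while without the removal the median difference is -0.31.

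Antisense reads in total RNA were rare at these genes. A row without any read had -2.73 log2 CPM in the antisense table of the *rdr3* set and -1.77 in that of the 7-mutant set, and 20 of the 44 genes stood at this value in each set. In the 7-mutant set none of the 44 was more than 1 log2 unit above it. In the *rdr3* set *LHCA2* had 1.42 and *PSBO2* had -1.34, and the other 42 lay within 1 log2 unit of it. The median of sense minus antisense was 7.0 in the *rdr3* set and 6.68 in the 7-mutant set. An annotated gene overlaps 16 of the 44 on the opposite strand, and at these an antisense read may belong to the neighbour. *LHCA2* and *PSBO2* are not among them.

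smRNA reads on the sense strand followed the level of the transcript. Over the 44 genes the sense log2 CPM of smRNA and of total RNA had a Pearson r of 0.881 and a Spearman rho of 0.858 in the *rdr3* set, and of 0.879 and 0.838 in the 7-mutant set. Over all genes with a total RNA log2 CPM of at least 0, the Spearman rho was 0.631 in the *rdr3* set and 0.794 in the 7-mutant set. The points share their libraries, and the correlations are given as descriptions. The highest sense smRNA levels were those of *LHCA2* with -0.64 log2 CPM in the *rdr3* set and 2.88 in the 7-mutant set, *LHCB5* with -0.73 and 2.15, and *LHCA4* with -0.74 and 1.68. The median of the 44 was -2.54 in the *rdr3* set and 0.18 in the 7-mutant set. In the sense table of smRNA, 97.6% of all CPM in the *rdr3* set and 75.7% in the 7-mutant set belonged to reads that matched more than 1 place, so these levels are not compared between the sets. Relative to total RNA in the same set, *LHCB1.1* and *LHCB1.3* had the fewest sense smRNAs, with a difference of -9.24 and -8.86 in the *rdr3* set and -6.80 and -6.50 in the 7-mutant set, against a median of -7.09 and -4.82 over the 44 genes. Both are among the 8 genes with many windows at several places.

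On the antisense strand, *LHCA2* stood apart from the other 43 genes. Its antisense smRNA level was -0.12 log2 CPM in the *rdr3* set and 3.64 in the 7-mutant set, at percentile 99.2 and 99.3 of all genes. The next highest were *LHCB1.3* with -4.59 and *LHCB1.4* with -4.69 in the *rdr3* set, and *LHCB1.3* with -1.93 and *LHCB1.5* with -2.19 in the 7-mutant set. A row without a read had -5.29 in the *rdr3* set and -4.14 in the 7-mutant set. Sense minus antisense was -0.52 at *LHCA2* in the *rdr3* set and -0.76 in the 7-mutant set, against a median over the 44 genes of 2.50 and 3.49. In the 7-mutant set *LHCA2* was the 1 gene of 44 with an antisense log2 CPM at or above its sense log2 CPM. Of the genes with a total RNA log2 CPM of at least 0, 2.65% were so. The strands were scaled separately, so this compares scaled levels and not numbers of reads. With the antisense levels placed by the reads at several places, the difference at *LHCA2* in the 7-mutant set was -0.16, and the share of 2.65% was not computed again. In the *rdr3* set *LHCB1.4* was the other such gene, with -5.28 on the sense strand, the value of a row without a read, and 8.24% of the genes with a total RNA log2 CPM of at least 0 were so.

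**Figure D3:**
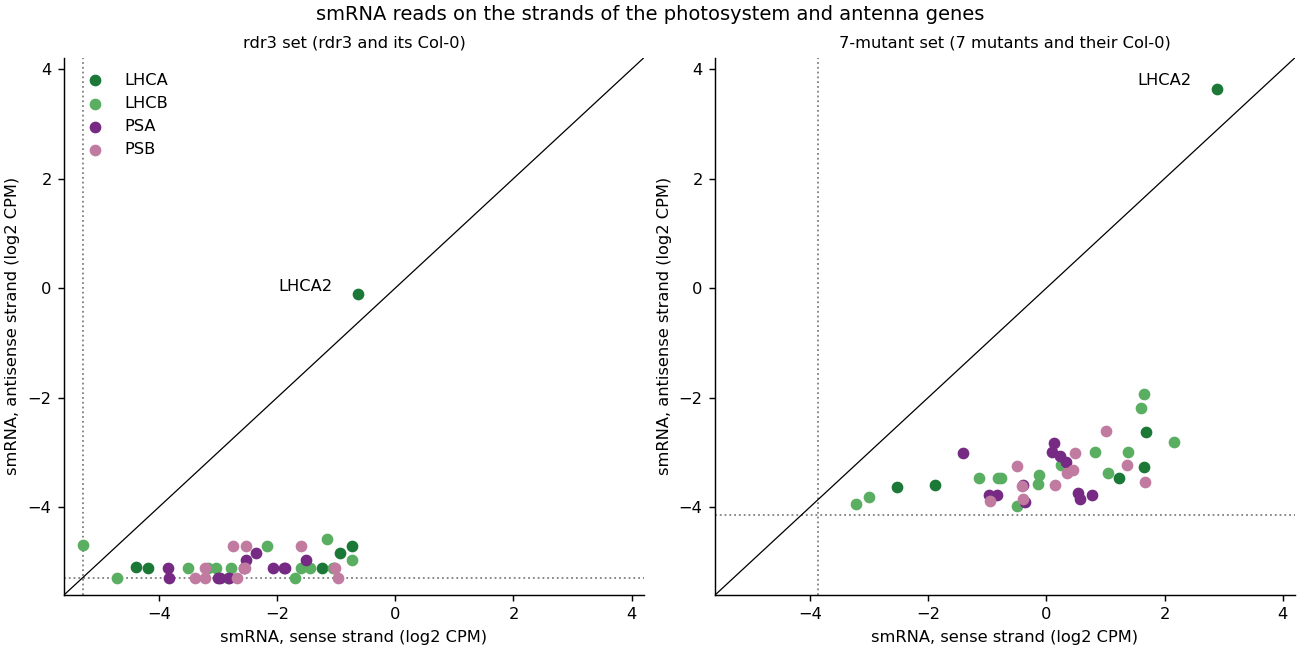
smRNA levels of the 44 genes on the sense strand (horizontal) and the antisense strand (vertical), as log2 CPM, in the rdr3 set (left) and the 7-mutant set (right); colours mark the 4 groups, dotted lines the value of a row without a read, and the diagonal equal levels on both strands. LHCA2 lies above the diagonal at -0.12 antisense in the rdr3 set and 3.64 in the 7-mutant set, while most other genes lie near the dotted antisense line.

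The exons of *LHCA2* shared windows with none of the other 43 genes, but with a locus on chromosome 5. Of its 1212 exon windows, 258 had a second place in *AT5G28450*, a gene of chromosome 5 at 10372872 to 10374190 on the minus strand, and 90 more in chromosome 5 outside genes. Stretches of 20 identical bases shared by both loci began at position 22746632 of chromosome 3, in exon 3 of the 4 exons of *LHCA2*. The last one found began at 22747756, beyond the annotated end at 22747444. The search covered the gene and a short stretch past its end, so how far the shared sequence reaches was not tested. The first 150 shared bases show how close the copy is. They lie at chr3:22746632-22746781 (plus strand, exon 3 of *LHCA2*) and chr5:10373221-10373370 (minus strand, 149 of the bases in an exon of *AT5G28450*) in TAIR10.1, and capitals mark the bases at which they differ.
LHCA2: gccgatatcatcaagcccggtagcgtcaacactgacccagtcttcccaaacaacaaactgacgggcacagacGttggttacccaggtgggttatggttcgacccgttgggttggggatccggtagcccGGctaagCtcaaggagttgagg
AT5G28450: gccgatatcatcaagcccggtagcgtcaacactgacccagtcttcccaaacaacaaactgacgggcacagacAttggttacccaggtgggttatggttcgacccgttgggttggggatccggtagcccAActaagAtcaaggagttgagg
The stretches differed at 4 of 150 bases and were 97.3% identical.

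*AT5G28450* itself had smRNA reads on both strands. For sense smRNA the level was -1.18 log2 CPM in the *rdr3* set and 1.82 in the 7-mutant set, and for antisense smRNA -2.23 and 1.45. In total RNA of the *rdr3* set it had 0.50 in sense and -0.60 in antisense direction. In the 7-mutant set it had -1.73 on the sense strand, where a row without a read has -1.85, and on the antisense strand it stood at the value of a row without a read, -1.77. *LHCA2* had 6.26 on the sense strand in the *rdr3* set and 6.90 in the 7-mutant set. On the antisense strand *LHCA2* had 1.42 in the *rdr3* set, and stood at the value of a row without a read in the 7-mutant set.

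smRNA levels along the *LHCA2* locus were read from bins of 500 nt, which count both strands. Levels in bins and levels of genes are on separate scales, and whether the bins hold reads with several places is not given in the sources used here. At *LHCB1.1*, a gene with many shared windows, the highest bin had -0.50 in the *rdr3* set and 2.40 in the 7-mutant set, while the gene had -3.51 and -0.81 on the sense strand. Genes with every window at 1 place differed in both directions. In the 7-mutant set the highest bin and the sense level of the gene were 0.39 and 1.66 at *LHCA1*, and 0.65 and -1.89 at *LHCA5*. The source of these gaps was not tested. At *LHCA2* the 4 bins before the gene had -5.36 to -5.19 log2 CPM in the *rdr3* set and -4.12 to -3.97 in the 7-mutant set, against a median over all bins of -5.04 and -3.57. The first bin of the gene had -4.33 in the *rdr3* set and -2.20 in the 7-mutant set, and the second -2.21 and 0.23. The third had 0.66 and 3.79 and the fourth, which holds the annotated end, 0.65 and 4.52. The next bins downstream had -0.51 and 3.21, 1.32 and 4.91, and -3.85 and -0.95, in the *rdr3* set and the 7-mutant set. The gene *AT3G61480* starts 2336 nt after the annotated end of *LHCA2*, beyond these bins. It was not checked whether a transposon or another gene is annotated between *LHCA2* and *AT3G61480*. At *AT5G28450* the highest bin had 1.17 in the *rdr3* set and 4.38 in the 7-mutant set. The first and second bins of *LHCA2*, which lie before the first stretch shared with chromosome 5, were above the median of all bins. Such bins are not particular to *LHCA2*. In the 7-mutant set the highest bin had 0.39 at *LHCA1* and 0.68 at *LHCA3*. The search for shared stretches ended in the first bin downstream of the gene. It did not reach the highest bin, so sharing of that bin with chromosome 5 was not tested. Whether the reads in these bins came from *LHCA2*, from the copy or from both was not tested.

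**Figure D4:**
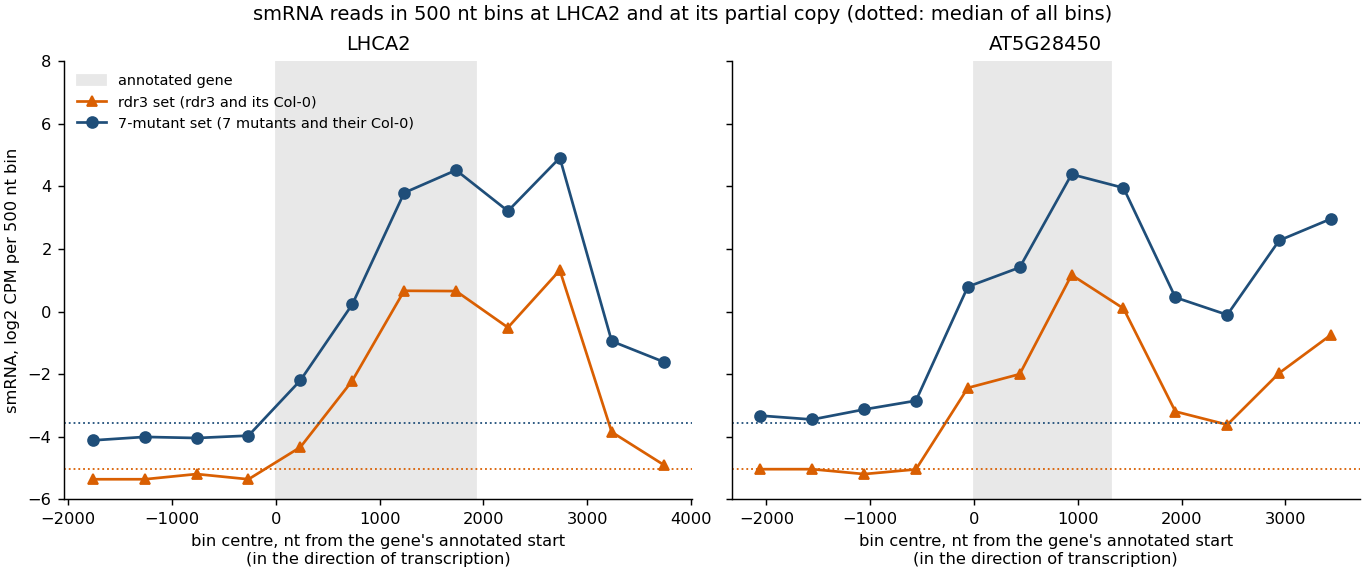
smRNA levels in bins of 500 nt, as log2 CPM, at LHCA2 (left) and AT5G28450 (right) by distance of the bin's centre from the gene's annotated start, in the direction of transcription; triangles are the rdr3 set, circles the 7-mutant set, grey the annotated gene and dotted lines the median of all bins. Levels at LHCA2 lie near the dotted lines upstream and reach 1.32 in the rdr3 set and 4.91 in the 7-mutant set downstream of the gene.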

How the data were processed

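Unopened flower buds were sequenced as smRNA and total RNA in 40 libraries. According to the study's methods and the submitters' processing notes, the authors trimmed reads with cutadapt, aligned them to TAIR10 with TopHat (up to 2 mismatches and 100 alignments per read), counted them per strand with HTSeq, or in bins of 500 nt with bedtools, and computed values with edgeR. Tool versions are not given in the sources used here. The deposited values used are the authors' mean log2 CPM per gene or bin, one mean per table. The remaining columns hold the authors' fold changes, p-values and FDR for each mutant against Col-0 and were not used. Of the sample columns 0 could not be mapped.

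In the sense table of total RNA, reads matching more than 1 place held 79.4% of all CPM in the *rdr3* set and 76.8% in the 7-mutant set. These totals, the other HTSeq totals and transposons were left out of percentiles. Low genes were filtered at a log2 CPM of 0. Levels per kb used mRNA lengths of TAIR10.1 (RefSeq), whose chromosome lengths fit the authors' bins. Exon windows of 50 nt were aligned with bwa 0.7.19-r1273. Python 3.11.15, numpy 2.4.6, pandas 2.3.3 and matplotlib 3.10.9 were used. The set comparison took the difference of both means, less the median over all genes passing the filter, with a limit of 0.5. No p-values were computed. Percentiles, the count of genes past the limit and the reverse complement of a sequence were tested on made-up data, and the other steps were not.

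The 44 genes and the other gene lists were chosen with earlier results of these data known. The planned comparison of levels between the 7 tables gave only 0, as they hold the same means, so the comparison of the sets, its alternatives and the count of windows at 1 place were chosen after seeing the data. Named were all 44 genes, with values for extremes of each group, related genes, the 3 highest in smRNA per strand, and extremes of other lists; the remaining values were added after they were seen. Genes of most similar pattern over the 7 tables could not be named, for the same reason.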

Additional observations from a re-analysis of the deposited data

How the results depend on the processing

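The comparison of the sets depended on its scale and limit. Without removing the median shift, 0 of 44 photosystem genes in place of 11 were higher by at least 0.5 in the *rdr3* set, and their median difference was -0.31 in place of 0.36. A limit of 0.25 gave 29 genes and a limit of 1 gave 0. With a filter at a log2 CPM of 3 it was 10 genes, and without the 8 genes with many shared windows 9. Among all genes, without the filter, the median percentile was 98.9 in the *rdr3* set and 98.6 in the 7-mutant set. The order of the genes by mRNA length had a Spearman rho with that by coding length of 0.98 in both sets, and with that by windows at 1 place of 0.98 in the *rdr3* set and 0.99 in the 7-mutant set. Placing the antisense smRNA table by the reads at several places gave a median sense minus antisense of 4.09 in place of 3.49 in the 7-mutant set, and -0.16 in place of -0.76 at *LHCA2*. The planned deviations between the 7 tables were 0 under every alternative run, by construction. Leaving out replicates and a change between DESeq2 and TMM scaling were not run, since the tables hold no values per library. No paired analysis was possible because the columns used carry no replicate numbers.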

Other observations

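Of the bins of 500 nt that overlap *PSBS* (*AT1G44575*), the highest in smRNA had 0.61 log2 CPM in the *rdr3* set and 3.42 in the 7-mutant set, at or above 97.2% and 95.7% of all bins. The gene itself had -2.54 and 0.45 on the sense strand and -5.12 and -3.33 on the antisense strand, in the *rdr3* set and the 7-mutant set. Bins count both strands and also sequence outside exons, and are on another scale than genes, so the level of this bin is not shown to be that of *PSBS* exons. The plastid-encoded photosystem genes had a median antisense smRNA level of -3.41 log2 CPM in the *rdr3* set and 0.14 in the 7-mutant set, against -5.12 and -3.44 for the 44 nuclear genes. Several other genes of the lists had antisense smRNA levels above their sense levels. The pollen gene *PPME1* had 0.69 antisense and 0.13 sense in the *rdr3* set and 4.45 and 3.45 in the 7-mutant set. The plastid gene *PSBK* had -1.63 antisense and -2.30 sense in the *rdr3* set and 2.34 and 0.63 in the 7-mutant set. Not all such genes are named here.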
